A study of Mus musculus with 18 samples.

Results

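The TGF-beta ligands TGFB1, TGFB2 and TGFB3, the receptors TGFBR1, TGFBR2 and TGFBR3, the latency proteins LTBP1 and LTBP2 and the responsive matrix gene TGFBI were followed over all cultures. These 9 genes were taken by name out of 30854 gene names in the array table, with every probe that carries one of the names, 24 of 45281 probes. A probe was kept when its detection p, a comparison with that array's negative controls, was under 0.05 on at least 3 of the 18 arrays. Of the 24 probes 14 were kept, and each of the 9 genes had at least 1 kept probe and was tested among 16446 genes.

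The arrays are Illumina mouse bead arrays, which read 1 fluorescent signal per RNA sample. Mouse embryonic stem (ES) cells, a line with a green fluorescent reporter knocked in and earlier kept on fibroblast feeders, were seeded on PA6, a stromal line from bone marrow (ES/PA6 co-cultures), and PA6 cells were also grown alone (PA6 mono-cultures). Each culture type was kept serum-free until day 3 in 1 of 3 conditions, namely without growth factors (-GFs), with recombinant FGF2 at 20 ng/ml or with recombinant BMP4 at 10 ng/ml. The BMP4 dose is that of the sample labels, and the study's methods give a lower one. This gives 6 groups of 3 arrays, 1 well per condition in each biological replicate, and the mono-cultures show the stroma without ES cells.

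TGF-beta is secreted by many cells in a latent complex, in which its own propeptide keeps it inactive and LTBP1 tethers it to the extracellular matrix until proteases, integrins or thrombospondin release it. The active ligand binds TGFBR2, which recruits and phosphorylates TGFBR1, and TGFBR1 in turn activates SMAD2 and SMAD3. TGFBR3, or betaglycan, is a co-receptor that presents ligand, and TGFBI is a secreted matrix protein named for its induction by TGF-beta.

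Detected probes numbered 19365 to 20412 per co-culture array and 17125 to 18391 per mono-culture array. All 7 ES markers in the table were detected on every co-culture array, and in the mono-cultures only POU5F1 was detected on every array. The mean log2 intensity of the ES markers was 11.68 to 12.62 in co-cultures and 5.37 to 5.70 in mono-cultures. The 10 stromal markers averaged 11.28 to 12.09 in co-cultures and 12.49 to 13.26 in mono-cultures. A co-culture array therefore reads RNA of both cell populations, and fewer cells of a type and less RNA per cell cannot be told apart.

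FGF2 changed TGFBI most among the 9 genes, 6.52-fold higher in PA6 cells alone and 2.14-fold higher in the co-cultures. The PA6 call was kept in all 19 alternative analyses and the co-culture call (adjusted p 0.0986) in 9 of 19. In PA6 cells TGFBR1 and TGFBR2 were also higher with FGF2, by 0.93 and 0.90 on the log2 scale, short of the fold threshold. TGFB3 was 4.39-fold lower with FGF2 than with BMP4 in PA6 cells, and TGFBR2 was 2.88-fold higher. None of the 9 genes was called for BMP4 against -GFs, where 0.76% of all genes were called in co-cultures and 1.41% in PA6 cells. In -GFs medium TGFBR2, TGFBR3, TGFB3 and the brighter probe of LTBP1 were lower in the co-cultures than in PA6 cells alone. The call was kept in 18 of 18 alternatives for TGFBR3 and 15 of 18 for TGFBR2. It was kept in 12 of 17 for LTBP1 and 11 of 18 for TGFB3. The second LTBP1 probe was higher by 0.70 and TGFBR1 by 0.50 on the log2 scale, neither reaching the fold threshold. A gene is said to be called, or to rise or fall, when its adjusted p in a limma fit over all 16446 genes was under 0.1 and its log2 fold change was over 1 in size. Levels are log2 normalized intensities, 1 probe per gene unless others are named, and the level of 1 probe is not set against that of another. Array values are listed as replicates 1, 2 and 3, and these numbers carry no order.

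The starts of TGFBI, TGFBR1 and TGFBR2 are shown because these 3 genes passed the adjusted p for FGF2 in PA6 cells. Of the 9 genes 7 had an entry in the RefSeq promoter table of assembly GRCm38.p6. The 250 bases before the gene start are printed 5′ to 3′ on the gene's strand: chr13:56609336-56609585 on the + strand for Tgfbi, chr4:47352972-47353221 on the + strand for Tgfbr1 and chr9:116175364-116175613 on the - strand for Tgfbr2. Capitals mark matches, on either strand, to the SMAD motif CAGAC and the GC box GGGCGG.
Tgfbi: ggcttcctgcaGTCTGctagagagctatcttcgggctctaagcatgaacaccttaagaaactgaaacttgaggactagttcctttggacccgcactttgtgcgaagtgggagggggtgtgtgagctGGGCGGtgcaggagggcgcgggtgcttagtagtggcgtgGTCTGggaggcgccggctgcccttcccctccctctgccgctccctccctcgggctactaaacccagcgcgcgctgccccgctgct
Tgfbr1: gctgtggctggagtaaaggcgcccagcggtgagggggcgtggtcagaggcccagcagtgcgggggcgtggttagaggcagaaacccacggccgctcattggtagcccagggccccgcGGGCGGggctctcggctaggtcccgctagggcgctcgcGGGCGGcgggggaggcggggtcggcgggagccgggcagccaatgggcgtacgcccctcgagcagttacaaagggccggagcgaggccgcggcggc
Tgfbr2: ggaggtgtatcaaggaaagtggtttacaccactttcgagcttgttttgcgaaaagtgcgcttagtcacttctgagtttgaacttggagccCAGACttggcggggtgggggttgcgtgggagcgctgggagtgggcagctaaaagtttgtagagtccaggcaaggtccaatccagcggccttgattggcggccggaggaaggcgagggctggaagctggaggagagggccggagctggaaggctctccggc
Tgfbi held 2 SMAD motifs and 1 GC box, Tgfbr1 held 2 GC boxes and Tgfbr2 held 1 SMAD motif. The AP-1 motif TGANTCA was not among the letters of these 3 windows. Of 32851 promoter windows of the same length, 42.2% held CAGAC, 32.7% held GGGCGG and 6.75% held TGANTCA, so a match to the shorter motifs is common. GC made up 62.4%, 74.8% and 58.4% of the Tgfbi, Tgfbr1 and Tgfbr2 windows.

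TGFB1, the founding ligand, was read by 1 probe (ILMN_2711461). In the co-cultures it was 7.24, 8.01 and 7.68 in -GFs, 8.82, 8.02 and 7.86 with FGF2 and 8.18, 7.56 and 7.11 with BMP4. In PA6 cells alone it was 8.59, 8.53 and 8.38 in -GFs, 8.62, 8.78 and 8.74 with FGF2 and 8.75, 8.81 and 8.90 with BMP4. The 3 co-culture groups overlapped one another, whereas both treated PA6 groups lay just above the PA6 -GFs arrays. The spread was wider in the co-cultures, with an SD pooled over groups of 0.482 against 0.0914 in the mono-cultures. The differences from -GFs in PA6 cells were 0.22 with FGF2 and 0.32 with BMP4, with adjusted p-values of 0.695 and 0.733. These p-values rest on a spread pooled over both culture types. Over 19 alternatives they ran from 0.225 to 0.837 with FGF2 and from 0.185 to 0.884 with BMP4, and 0 were called. The BMP4 difference in co-cultures was 0.94, -0.45 and -0.56 in replicate sets 1, 2 and 3, where a set is the arrays of the same number, and it averaged -0.02. FGF2 in the co-cultures differed from -GFs by 1.58, 0.01 and 0.19 in the 3 sets, above 0 in each, and the mean of 0.59 ± 0.261 (SE) was not called (adjusted p 0.24). FGF2 exceeded BMP4 in the co-cultures by 0.62 ± 0.261 (SE), with an adjusted p of 0.226. In -GFs medium the co-cultures were lower by 0.86 ± 0.261 (SE; adjusted p 0.00829), which missed the fold threshold, and the arrays of the culture types did not overlap. Without co-culture -GFs replicate 2 the difference was -1.04 and was called.

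TGFB2, the second ligand, was read by ILMN_1225196. It was 7.62, 7.99 and 8.06 in co-cultures without growth factors, 7.70, 7.75 and 8.47 with FGF2 and 7.83, 8.55 and 8.72 with BMP4. The PA6 values were 9.04, 8.21 and 8.70 in -GFs, 9.54, 9.35 and 9.02 with FGF2 and 8.73, 8.77 and 7.96 with BMP4. Every group overlapped its neighbour in the order of the means, which ran from PA6 with FGF2 at the top to the co-cultures in -GFs at the bottom. In PA6 cells FGF2 exceeded BMP4 by 0.82 ± 0.29 (SE; adjusted p 0.0711), below the fold threshold, and the 3 FGF2 arrays lay above the 3 BMP4 arrays. The FGF2 change against -GFs was 0.65 in PA6 cells (adjusted p 0.165) and 0.08 in co-cultures (adjusted p 0.937). In -GFs medium the co-cultures were lower by 0.76 ± 0.29 (SE; adjusted p 0.0289), again short of the fold threshold.

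TGFB3, the third ligand, had the clearest order of the 3 in PA6 cells (ILMN_2748966). It was 9.81, 9.85 and 10.05 in -GFs, 8.37, 8.42 and 8.92 with FGF2 and 10.66, 10.47 and 10.98 with BMP4, so that none of the 3 PA6 groups overlapped another. The log2 difference of FGF2 from BMP4 was -2.13 ± 0.529 (SE; adjusted p 0.0111), which was called. Against -GFs the FGF2 change of -1.33 ± 0.529 (SE) was not called, with an adjusted p of 0.114 and a range of 0.00116 to 0.254 over its alternatives. It was called in 7 of them, among these the fit to the PA6 arrays alone (adjusted p 0.00116). The BMP4 change of 0.80 was not called (adjusted p 0.627).

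In the co-cultures TGFB3 was 7.17, 9.01 and 10.02 in -GFs, 7.27, 8.03 and 8.92 with FGF2 and 8.68, 9.53 and 9.68 with BMP4. Replicate set 1 was lowest and set 3 highest in all 3 conditions, and the sets lay -0.99, 0.15 and 0.84 from the group means on average. The pooled SD was 1.01 in co-cultures and 0.245 in mono-cultures. Within sets the FGF2 change was 0.10, -0.98 and -1.10, and FGF2 was below BMP4 in each set. The difference between the growth factors was -1.23 ± 0.529 (SE; adjusted p 0.235), and blocked on the replicate number it was called (adjusted p 0.00879, the low end of its range). In -GFs medium TGFB3 was lower in the co-cultures by 1.17 ± 0.529 (SE; adjusted p 0.062). The call was lost without co-culture -GFs replicate 1, where the difference was -0.39, and the groups overlapped. It was also lost without PA6 -GFs replicate 2 or 3 (adjusted p 0.101 and 0.132). Quantile normalization, cubic spline, no filter on dim probes and an adjusted p under 0.05 lost it as well.

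Adipocyte markers moved with TGFB3 in PA6 cells. The mean of the 6 markers was 9.06 to 9.13 in -GFs, 5.90 to 6.43 with FGF2 and 10.18 to 11.05 with BMP4. Where 2.94% of all genes were called lower with FGF2 than with BMP4, 5 of the 5 tested markers were. Their summed raw intensity was 9530 to 12002, 831 to 1287 and 23978 to 56631 in the same groups, and 3 of the 6 were detected on none of the FGF2 arrays. Their part in the TGFB3 difference was not tested. In the co-cultures the adipocyte marker mean was lowest in replicate set 3 in every condition (6.76 in -GFs, 6.15 with FGF2 and 8.41 with BMP4). TGFB3 was highest in that set. The means of 5 neural and 6 endothelial markers were highest in set 3 in every condition. They were 7.13 and 7.32 in -GFs, 6.87 and 7.33 with FGF2 and 5.72 and 7.69 with BMP4. The part of these markers in the TGFB3 differences between sets was not tested.

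**Figure D1:**
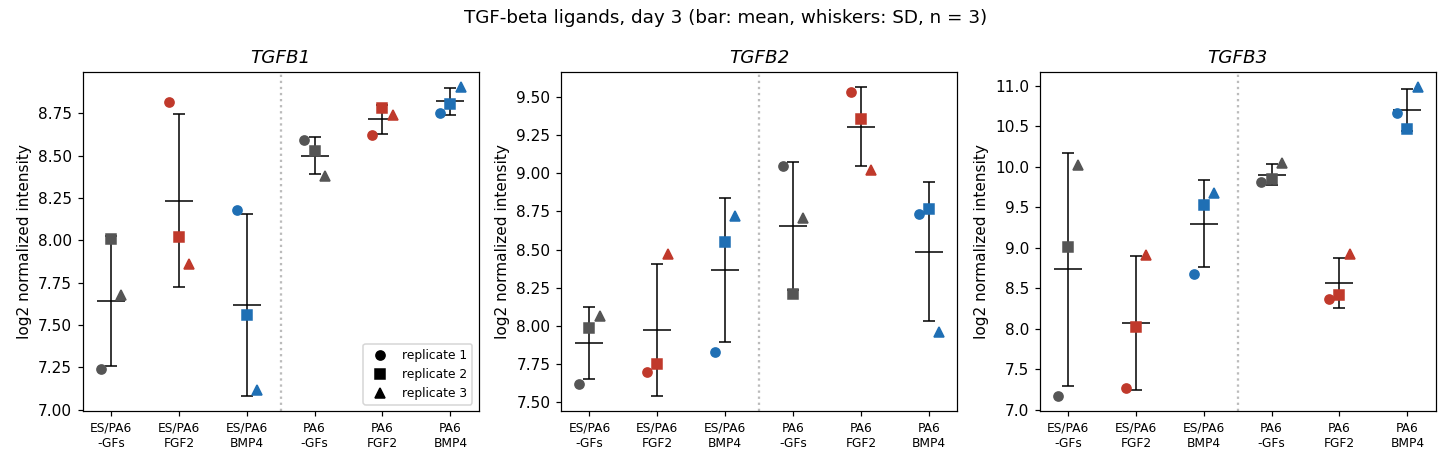
Log2 normalized intensity of TGFB1, TGFB2 and TGFB3 on each of the 18 arrays by group, with symbols for replicates 1 to 3, horizontal bars for means and whiskers for the SD (n = 3). TGFB3 in PA6 cells falls into 3 separate groups (8.37 to 8.92 with FGF2, 9.81 to 10.05 in -GFs, 10.47 to 10.98 with BMP4), while its co-culture arrays spread from 7.17 to 10.02.

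Among the latency proteins, LTBP1 was read by 7 probes, 2 of them kept. The brighter probe (ILMN_1221564) was near the detection limit in the co-cultures, at 6.61, 6.14 and 7.25 in -GFs, 6.64, 5.47 and 7.52 with FGF2 and 6.63, 6.97 and 6.65 with BMP4. In PA6 cells it was 7.58, 7.62 and 8.10 in -GFs, 8.56, 8.39 and 8.35 with FGF2 and 8.40, 7.89 and 8.86 with BMP4. All 9 PA6 arrays lay above all 9 co-culture arrays. The difference in -GFs medium was -1.11 ± 0.392 (SE; adjusted p 0.0202), a call lost without co-culture -GFs replicate 2 (-0.84), without PA6 -GFs replicate 3 (-0.94) and under 3 other normalizations (-0.94 to -0.65). The second probe (ILMN_2765452), detected on 6 of the 18 arrays and on 0 of 3 PA6 -GFs arrays, differed the other way by 0.70 (adjusted p 0.0102). That difference was below the fold threshold, and the direction for LTBP1 rests on the probe used. In PA6 cells the brighter probe was higher by 0.66 with FGF2 and by 0.61 with BMP4, neither called (adjusted p 0.322 and 0.605). The second probe was lower with FGF2 in the co-cultures by 0.77 (adjusted p 0.0488), below the fold threshold. Its FGF2 effect in co-cultures minus that in PA6 cells was -1.13 (adjusted p 0.0301), while the brighter probe gave -0.78 and was not called (adjusted p 0.434).

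LTBP2, a matrix protein of the same family that does not bind TGF-beta itself, was read by ILMN_2501940 at low levels throughout, from 5.99 to 7.30. The co-culture values were 6.11, 6.31 and 5.99 in -GFs, 6.82, 6.78 and 6.02 with FGF2 and 6.68, 6.91 and 6.43 with BMP4. The PA6 values were 6.62, 6.88 and 6.60, then 6.18, 7.24 and 7.30, then 6.79, 6.81 and 7.30 in the same order. The 3 BMP4 co-cultures lay above the 3 -GFs co-cultures, by 0.54 on average (adjusted p 0.511). In -GFs medium the co-cultures were lower by 0.56 (adjusted p 0.0795), short of the fold threshold.

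TGFBR1, the type I receptor kinase, had 2 kept probes of 4. The brighter (ILMN_2602711) was 11.73, 11.79 and 11.69 in co-cultures without growth factors, 11.91, 12.13 and 12.22 with FGF2 and 11.66, 12.07 and 11.84 with BMP4. In PA6 cells it was 11.31, 11.11 and 11.31 in -GFs, 12.08, 12.49 and 11.96 with FGF2 and 11.44, 11.68 and 11.74 with BMP4. The PA6 -GFs arrays were the lowest of all 18. The order of the means ran from PA6 with FGF2 through the 3 co-culture groups to PA6 with BMP4 and PA6 in -GFs, and only the last pair of neighbours did not overlap. The 3 FGF2 arrays lay above the 3 -GFs arrays in both culture types, and within the co-culture sets the difference was 0.18, 0.34 and 0.53. The difference passed the adjusted p in PA6 cells (0.93 ± 0.151 SE, adjusted p 0.000443) but not in co-cultures (0.35 ± 0.151 SE, adjusted p 0.228). The co-culture effect minus the PA6 effect was -0.59 ± 0.213 (SE; adjusted p 0.0981), below the fold threshold. FGF2 also exceeded BMP4 in PA6 cells, by 0.56 (adjusted p 0.0193). The second probe (ILMN_2980532) gave 0.73 for FGF2 in PA6 cells (adjusted p 0.024) and 0.14 for the culture types, where the brighter probe gave 0.50 (adjusted p 0.561 and 0.00831).

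TGFBR2, the type II receptor that binds the ligand first, was read by ILMN_2760979 and by a second, dimmer kept probe. In PA6 cells it was 13.21, 13.17 and 13.11 in -GFs, 14.30, 13.82 and 14.07 with FGF2 and 12.60, 12.28 and 12.72 with BMP4. As for TGFB3, none of these groups overlapped another, but the order was the other way round, with FGF2 highest and BMP4 lowest. FGF2 exceeded BMP4 by 1.53 ± 0.227 (SE; adjusted p 0.000183), a 2.88-fold difference, and by 1.24 on the second probe (ILMN_1242086; adjusted p 0.0188). Against -GFs the FGF2 difference was 0.90 ± 0.227 (SE; adjusted p 0.0131), and it crossed the fold threshold on the second probe (1.04; adjusted p 0.0468). The BMP4 difference of -0.63 was not called (adjusted p 0.208).

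In the co-cultures TGFBR2 was 12.32, 12.52 and 11.60 in -GFs, 12.15, 12.28 and 11.70 with FGF2 and 11.40, 11.76 and 11.17 with BMP4. BMP4 was the lowest condition in each replicate set, by 0.92, 0.76 and 0.43 below -GFs, and the mean difference of -0.70 was not called (adjusted p 0.199). Over its 19 alternatives the adjusted p ran from 0.0107 to 0.521 and the difference from -0.98 to -0.52, short of the fold threshold. FGF2 left the level within the spread of -GFs (-0.10 ± 0.227 SE). The FGF2 effect in co-cultures minus that in PA6 cells was -1.002 ± 0.322 (SE; adjusted p 0.0602), which was called, and -1.20 on the second probe (adjusted p 0.127), which was not. That call sits at the fold threshold and was kept in 11 of 24 alternatives. It was lost without co-culture -GFs replicate 1 or 2, co-culture FGF2 replicate 3, PA6 -GFs replicate 2 or 3 and PA6 FGF2 replicate 1 or 3, at adjusted p-values of 0.098 to 0.145 and differences as small as -0.82. In -GFs medium TGFBR2 was lower in the co-cultures by 1.02 ± 0.227 (SE; adjusted p 0.000837) and by 1.10 on the second probe (adjusted p 0.00797). Without co-culture -GFs replicate 3 the difference was -0.75 and without PA6 -GFs replicate 1 it was -0.9965, neither past the fold threshold.

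TGFBR3, the co-receptor betaglycan, separated the culture types more than any other of the 9 genes. On ILMN_2789239 it was 11.04, 11.09 and 9.84 in co-cultures without growth factors, 11.06, 11.05 and 10.77 with FGF2 and 11.13, 11.44 and 10.25 with BMP4. In PA6 cells it was 12.52, 12.98 and 12.83, then 13.16, 13.08 and 13.03, then 12.67, 12.71 and 12.81 in the same order. All 9 PA6 arrays lay above all 9 co-culture arrays. In -GFs medium the co-cultures against PA6 cells gave -2.12 ± 0.299 (SE; adjusted p 1.01e-05), a 4.33-fold fall, and -2.10 on the second probe (ILMN_2606601; adjusted p 0.000308). The call was kept in all 18 alternatives that tested it. Of the 10 stromal markers 7 were called lower in the same comparison, where 19.5% of all genes were called lower. The markers had a median of -1.49, against -0.11 for all genes, and their part in the TGFBR3 difference was not tested. On the first probe TGFBR3 differed from -GFs by at most 0.32 with either growth factor in either culture type, with adjusted p-values of 0.584 to 0.993. The second probe gave 0.53 for FGF2 in PA6 cells (adjusted p 0.494). For FGF2 in co-cultures it gave -0.33 (adjusted p 0.789), where the first probe gave 0.30, so the probes differed in sign.

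**Figure D2:**
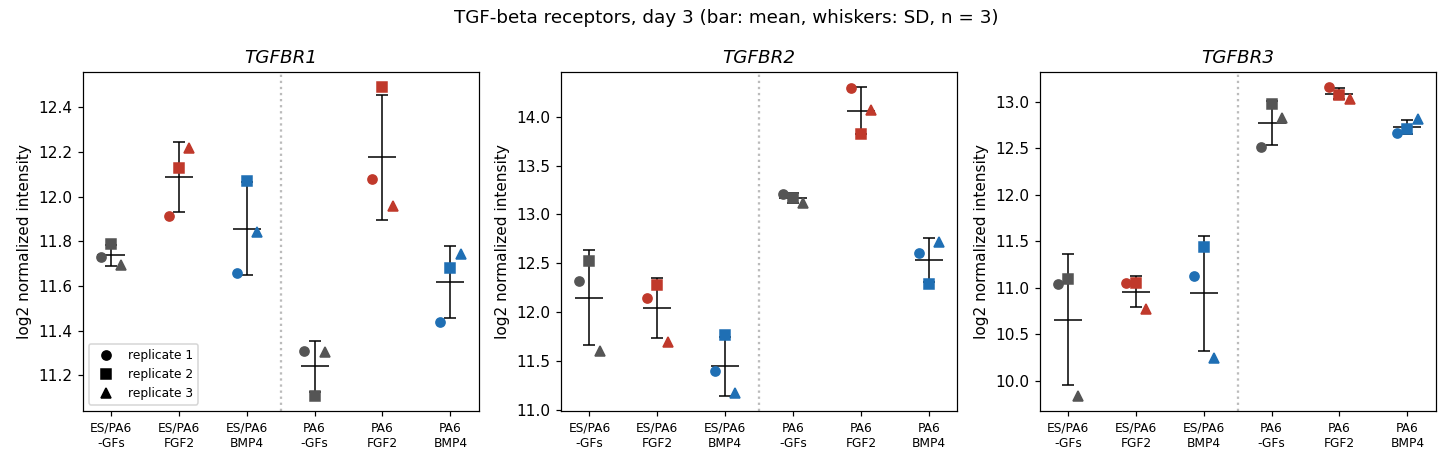
Log2 normalized intensity of TGFBR1, TGFBR2 and TGFBR3 on each array by group, with means (bars) and SD (whiskers, n = 3). PA6 cells with FGF2 hold the highest TGFBR2 values (13.82 to 14.30), and TGFBR3 lies at 12.52 to 13.16 on every PA6 array and at 9.84 to 11.44 on every co-culture array.

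TGFBI was the most responsive of the 9 genes to FGF2, on both of its probes. In PA6 cells ILMN_2834379 read 12.18, 11.71 and 12.05 in -GFs, 14.59, 14.94 and 14.53 with FGF2 and 12.34, 11.58 and 12.74 with BMP4. The FGF2 arrays stood apart from all others, and the BMP4 arrays overlapped -GFs. The rise was 2.71 ± 0.367 (SE; adjusted p 8.53e-05) over -GFs and 2.47 ± 0.367 (SE; adjusted p 0.000183) over BMP4, and both calls were kept in all of their alternatives. The second probe (ILMN_2727663) rose by 3.10 and 2.80 in these comparisons (adjusted p 0.000121 and 0.000281).

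In the co-cultures TGFBI was 12.81, 12.46 and 11.08 in -GFs, 13.45, 13.43 and 12.75 with FGF2 and 11.95, 11.82 and 11.49 with BMP4. FGF2 was the highest condition in each replicate set, above -GFs by 0.64, 0.97 and 1.67, although the groups overlapped. The mean rise of 1.10 ± 0.367 (SE) had an adjusted p of 0.0986, and was called in 9 of 19 alternatives. In the fit over all kept probes the same probe had an adjusted p of 0.103, and the second probe gave 1.04 with an adjusted p of 0.222. Without -GFs replicate 3 it was 0.57 and was not called, nor was it without -GFs replicate 2 or FGF2 replicate 1 or 2 (1.27, 0.97 and 0.98). Blocked on the replicate number, which pairs the co-culture arrays, its adjusted p was 0.0211. Over BMP4 the rise was 1.46 ± 0.367 (SE; adjusted p 0.0289) without overlap, and it was not called without FGF2 replicate 1 or 2 (1.34 and 1.35; adjusted p 0.104 and 0.102). The FGF2 effect was smaller in the co-cultures than in PA6 cells by 1.61 ± 0.519 (SE; adjusted p 0.0611), and by 2.05 on the second probe (log2 difference -2.05, adjusted p 0.0463), both called. The first was lost without co-culture -GFs replicate 1 or 2, co-culture FGF2 replicate 3, PA6 -GFs replicate 2 or PA6 FGF2 replicate 2, where it was -1.48 to -1.26. In -GFs medium the culture types differed by 0.14 (adjusted p 0.761), and the arrays overlapped.

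**Figure D3:**
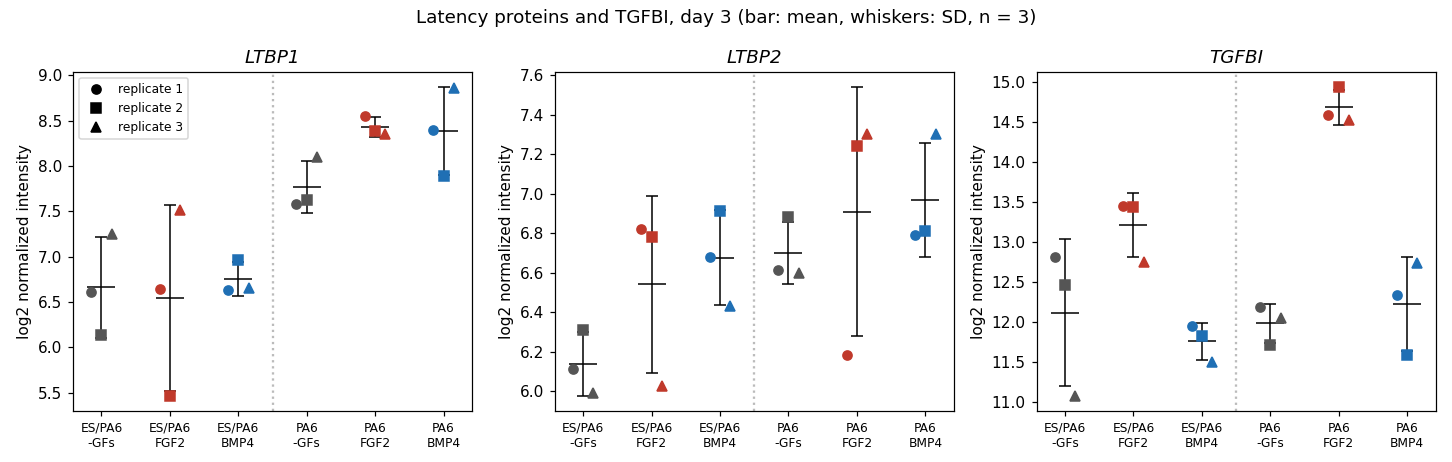
Log2 normalized intensity of LTBP1, LTBP2 and TGFBI on each array by group, with means (bars) and SD (whiskers, n = 3). TGFBI stands at 14.53 to 14.94 in PA6 cells with FGF2, above all other arrays, and LTBP1 in the co-cultures (5.47 to 7.52) lies below its PA6 values (7.58 to 8.86).

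Counted over the 9 genes, FGF2 against -GFs in co-cultures called 1, TGFBI, where 3.34% of all genes were called. In PA6 cells it also called 1, TGFBI, against 5.27% of all genes, and TGFBR1 and TGFBR2 passed the adjusted p alone, as 18.7% of all genes did with or without the fold. BMP4 against -GFs called 0 of 9 in co-cultures (0.76% of all genes) and 0 of 9 in PA6 cells (1.41%). At an unadjusted p under 0.05 in the same limma fit the BMP4 counts were 1 (TGFBR2, against 10.9% of all genes) and 2 (TGFBR1 and TGFBR2, against 12.6%). The FGF2 counts at that level were 3 of 9 in co-cultures (17.8% of all genes) and 5 of 9 in PA6 cells (26%). FGF2 against BMP4 called 1 of 9 in co-cultures (2.85% of all genes) and 3 of 9 in PA6 cells (5.82%), with TGFBI and TGFBR2 higher (2.88% of all genes) and TGFB3 lower with FGF2 (2.94%). TGFB2 and TGFBR1 passed the adjusted p alone there, which 20.3% of all genes passed. Between the culture types in -GFs medium 4 of 9 fell in the co-cultures and 0 rose, where 39% of all genes were called, 19.5% lower and 19.4% higher. The adjusted p was passed by 8 of 9 genes there and by 71.2% of all genes. The FGF2 effect differed between culture types for 2 of 9 genes, both lower (7.39% of all genes, 3.4% lower), with TGFBR1 also past the adjusted p that 15% of all genes passed, and the BMP4 effect for 0 of 9 (0.559%), with 0 also at an unadjusted p under 0.05 in limma (9.74% of all genes).

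The median change of the 9 genes was 0.30 for FGF2 in co-cultures and 0.65 in PA6 cells, against -0.01 for all genes in each. It was 0.12 and 0.27 for BMP4, against -0.00 and 0.01, and -0.86 for the culture types, against -0.11. The treated arrays did not overlap -GFs for 7 of 9 genes with FGF2 in PA6 cells (33.8% of all genes) and for 4 of 9 with BMP4 (21.5%). In co-cultures this held for 1 of 9 genes with each factor, TGFBR1 with FGF2 and LTBP2 with BMP4 (19.3% and 13% of all genes). Between the growth factors it held for 6 of 9 genes in PA6 cells (33.1%) and 1 of 9 in co-cultures (18.8%), and between the culture types for 7 of 9 (70.4%).

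**Figure D4:**
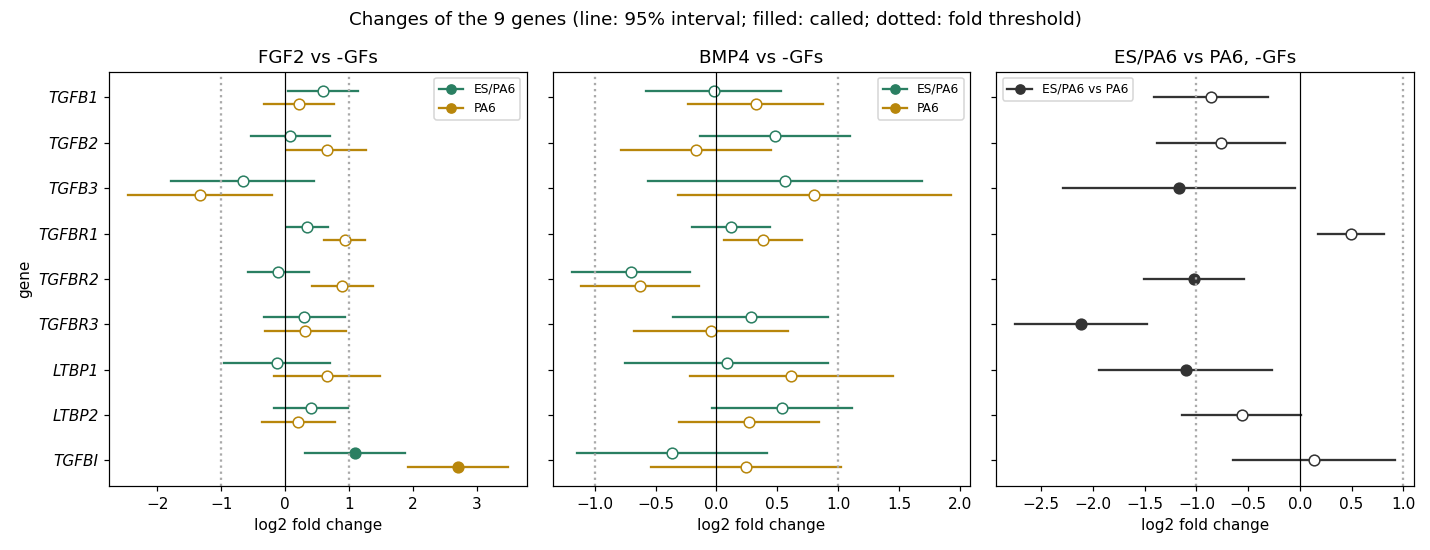
Log2 fold changes of the 9 genes for FGF2 and BMP4 against -GFs in both culture types and for ES/PA6 against PA6 in -GFs medium, with 95% intervals as lines, filled points for called genes and dotted lines at the fold threshold of 1. The interval of TGFBI for FGF2 in PA6 cells (1.93 to 3.48) lies wholly above 1, and that of TGFBR3 between the culture types (-2.75 to -1.48) wholly below -1.

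The co-culture replicate sets differed, and the direction varied among the 9 genes. Relative to the group means, set 3 was high for TGFB3 (0.84), LTBP1 (0.49) and TGFB2 (0.34) and low for TGFBI (-0.59), TGFBR3 (-0.57), TGFBR2 (-0.39), LTBP2 (-0.30) and TGFB1 (-0.28), with TGFBR1 at 0.02. Set 1 was lowest for TGFB3 (-0.99) and TGFB2 (-0.36) and highest for TGFBI (0.38) and TGFB1 (0.25). The SD within groups was larger in co-cultures than in mono-cultures for 7 of 9 genes, the exceptions being TGFBR1 and LTBP2. The stromal markers averaged 11.94, 12.09 and 11.58 in the -GFs co-cultures, 11.43, 11.40 and 11.42 with FGF2 and 11.41, 11.71 and 11.28 with BMP4, so set 3 was lowest in -GFs and BMP4 but not with FGF2. Adipocyte markers were lowest in set 3 in every condition, and neural and endothelial markers were highest there. The part of these marker lists in the differences between sets was not tested.

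**Figure D5:**
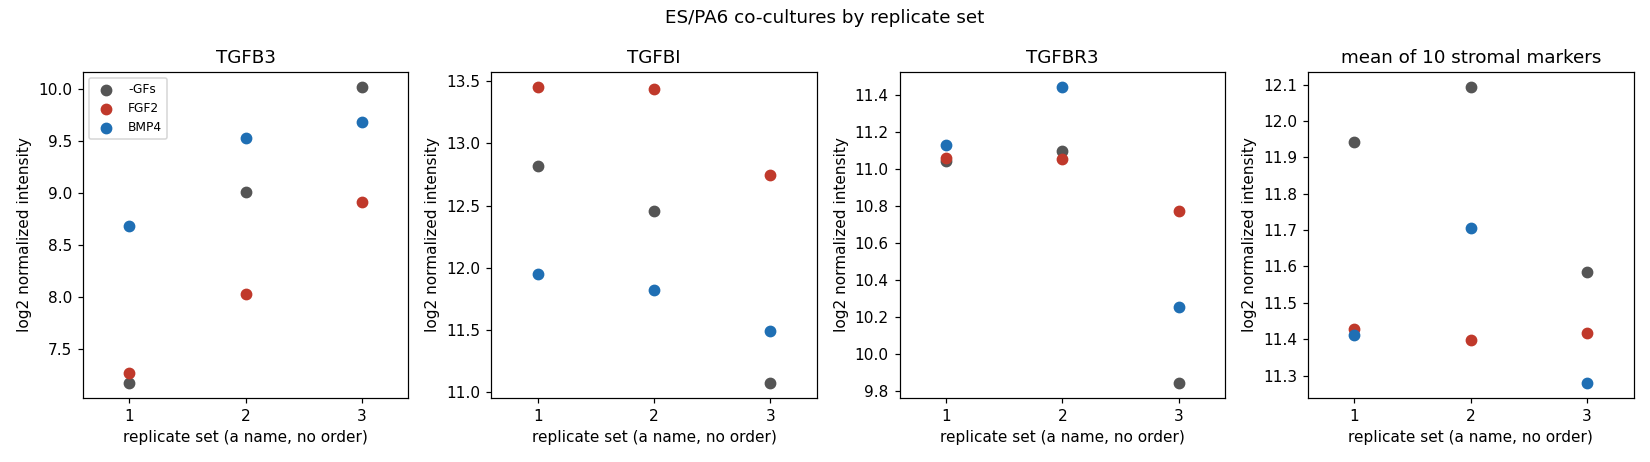
Log2 normalized intensity of TGFB3, TGFBI and TGFBR3 and the mean of 10 stromal markers on the 9 co-culture arrays, by replicate set (a name without order) and coloured by condition. TGFB3 is lowest in set 1 and highest in set 3 in each condition, while TGFBI and TGFBR3 are lowest in set 3.

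Across the 18 arrays, with each culture type's mean subtracted, TGFBI varied with TGFBR2 (Pearson's r 0.80) and TGFBR1 (0.78) and against TGFB3 (-0.81), and TGFB3 against TGFBR2 (-0.78). These values describe arrays that share treatments and replicate sets. By the same measure over all tested genes, the 3 nearest to TGFBI were ANK3 (0.959), IL13RA1 (0.958), a receptor chain for interleukin 13, and STEAP2 (0.95). Nearest to TGFBR2 were JUN (0.949), a subunit of AP-1, the chemokine CCL2 (0.948) and SERPINA3G (0.947), a protease inhibitor. Nearest to TGFB3 were ANXA3 (0.953), DLG3 (0.927) and FIGF (0.917), which encodes VEGF-D. TGFBR1 had TIAM1 (0.896), ATP1B3 (0.886) and CDA (0.884), and TGFBR3 had ADAM23 (0.89), B3GALT6 (0.871) and SLC41A2 (0.867). For the dimmer genes the best values were lower, 0.793 for TGFB1 (ST7), 0.77 for TGFB2 (CAPN6), 0.798 for LTBP1 (PPM2C) and 0.805 for LTBP2 (SCL0001375.1_63, with ILDR1 at the same value).

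Other genes of the pathway were taken from 4 lists of 55 genes, of which 52 were in the table and 42 were tested. For FGF2 in PA6 cells 6 of the 42 rose and 4 fell, where 5.27% of all genes were called, and the median of the lists was 0.04 against -0.01 for all genes. Among the 18 tested TGF-beta-responsive genes 5 rose and 1 fell, against the same 5.27%. JUNB, an AP-1 subunit, rose by 2.22 (adjusted p 3.19e-06), TIMP1, an inhibitor of matrix proteases, by 2.20 (adjusted p 1.16e-06), and CTGF and CYR61, secreted matricellular proteins, by 2.11 and 1.58 (adjusted p 0.000137 and 0.069). SPHK1, a sphingosine kinase, rose by 1.05 (adjusted p 0.00615), and POSTN, the matrix protein periostin, fell by 1.25 on the log2 scale (adjusted p 0.00587). Of the matrix proteins that bind TGF-beta, FMOD was detected on every -GFs array and no FGF2 array, at least 16.8-fold lower with FGF2 (adjusted p 5.54e-09). ASPN, detected on 2 of 3 -GFs arrays and no FGF2 array, was at least 1.35-fold lower (adjusted p 0.000539). THBS1, which activates latent TGF-beta, fell by 1.86 on the log2 scale (adjusted p 2.89e-05), and PLAT, the tissue plasminogen activator, rose by 1.45 (adjusted p 0.000288).

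In the co-cultures FGF2 called 2 of the 42 (3.34% of all genes), with TIMP1 higher by 1.59 (adjusted p 8.66e-05) and THBS1 lower by 1.40 on the log2 scale (log2 fold change -1.40, adjusted p 0.00114). CTGF differed by -0.37 there (adjusted p 0.606), and the difference of its FGF2 effect from that in PA6 cells was -2.48 (adjusted p 0.00146). BMP4 called 2 of the 42 in PA6 cells (1.41% of all genes), FMOD (-1.65, adjusted p 0.00177) and COL3A1, a fibrillar collagen and one of the stromal markers, (-1.58, adjusted p 0.0083). In co-cultures, where 0.76% of all genes were called, it called COL3A1 alone (-1.16, adjusted p 0.082), a call lost without any 1 of 5 arrays and kept without -GFs replicate 3. No gene of the 8 tested SMADs and regulators was called for either factor in either culture type, where 0.76% to 5.27% of all genes were called. ACTA2, smooth muscle actin, differed by -0.97 with FGF2 in co-cultures and by -1.18 in PA6 cells, neither called (adjusted p 0.566 and 0.343). SMAD7, an inhibitory SMAD induced by TGF-beta, was detected on 0 of 18 arrays and not tested. Between the culture types in -GFs medium 6 of the 42 rose and 18 fell in the co-cultures, where 19.4% of all genes rose and 19.5% fell, with a list median of -0.75 against -0.11 for all genes.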

How the data were processed

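RNA from 18 cultures, 3 in each of 6 groups named by the labels, was read on mouse bead arrays. The table the authors deposited holds intensity values of 45281 probes, not normalized, from 55.5 to 72879, and the submitters' processing notes name GenomeStudio 2011.01, and the deposited detection p-value compares each probe with negative controls. A further 5 stray, shifted lines were left out. The authors normalized by cubic spline in their own work. Here neqc (limma 3.58.1, R 4.3.3, offset of 16) gave log2 values, in which changes of dim probes are understated. Each gene was read by its brightest kept probe on average. A single limma fit of 6 group means over 18 arrays gave the 9 comparisons, with Benjamini-Hochberg adjustment over 16446 genes, and a second fit over all 22987 kept probes gave the values of single probes. The thresholds are those of the study's methods.

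The labels describe separate biological replicates, whose number, 3 per group, limits the precision. The p-values of the main fit rest on 1 spread per gene, pooled over the 6 groups of both culture types. For a gene such as TGFB1, with a pooled SD of 0.482 in co-cultures and 0.0914 in mono-cultures, the co-culture spread enters the PA6 p-values. An exact permutation test of 3 against 3 cannot go below 0.1, so none was used. No pair of arrays held identical values (0 pairs). Whether equal replicate numbers pair arrays was checked from the deviations from group means, which correlated at 0.325 to 0.521 in 9 same-numbered co-culture pairs, so that the numbers pair those arrays, and at 0.0628 to 0.164 in 9 mono-culture pairs.

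The 9 genes, the pathway lists, the cell type markers and the tests were chosen with earlier results of these data known. All 9 genes are named whatever their values, with the called pathway genes in comparisons with -GFs, the 3 genes most like each in pattern, and CTGF, SMAD7 and ACTA2. Another gene that the rule allows is not reported here. Where no array of a group detected a gene, its fold is a bound set from the lowest detected signal per array. Gene names come from the array table and can be old, and all 9 have a current RefSeq symbol. Adjusted p-values are limma's throughout. The scripts were tested on simulated data. Alternatives were other normalizations, filters on dim probes, probe choice, limma's trend, weights and block, the arrays used, the thresholds and leaving out each array.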

Additional observations from a re-analysis of the deposited data

Results flagged for a closer look

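The effect of FGF2 differed between the culture types for 2 of the 9 genes, where 7.39% of all genes were called, by the contrast of the co-culture change minus the PA6 change in the limma fit over all genes. For TGFBI the difference was -1.61 ± 0.519 (SE; adjusted p 0.0611), from a rise of 1.10 in the co-cultures and 2.71 in PA6 cells, with FGF2 higher in 3 of 3 co-culture sets and all 3 FGF2 arrays above the -GFs arrays in PA6 cells. For TGFBR2 it was -1.002 ± 0.322 (SE; adjusted p 0.0602), from -0.10 in the co-cultures and 0.90 in PA6 cells, with FGF2 higher in 1 of 3 co-culture sets and all 3 FGF2 arrays above the -GFs arrays in PA6 cells. The second TGFBR2 probe gave -1.20 and was not called (adjusted p 0.127). Neither call held at an adjusted p under 0.05, and leaving out 1 array lost the TGFBI call in 5 of 12 cases and the TGFBR2 call in 7 of 12. The co-culture RNA also holds ES cell RNA, whose part in these differences was not tested.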

How the results depend on the processing

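Over the 9 genes and 9 comparisons, 81 log2 fold changes were recomputed, giving 1602 alternative values. Of these 1533 kept their side of the thresholds, 47 lost a call, 22 gained one and 0 called values changed sign, while 53 uncalled values changed sign and stayed uncalled. TGFBI for FGF2 in PA6 cells, TGFBI, TGFBR2 and TGFB3 for FGF2 against BMP4 in PA6 cells and TGFBR3 between the culture types were called in every alternative that tested them. The number of the 9 genes called for FGF2 in PA6 cells was 2 in place of 1 with quantile normalization, cubic spline, median scaling, detection on all 18 arrays, array weights, the PA6 arrays alone and the replicate block (the added gene was TGFB3), and 2 with the probe of largest variance (TGFBR2 added). For FGF2 in co-cultures it was 0 in place of 1 with detection on at least 1 array, no filter on dim probes, the probe of largest variance, trend and robust, the co-culture arrays alone or an adjusted p under 0.05. For the difference of the FGF2 effects it was 1 in place of 2 with quantile, spline or median scaling, array weights or the probe of largest variance, and 0 at an adjusted p under 0.05. Between the culture types it was 2 in place of 4 with quantile or spline. For FGF2 against BMP4 in co-cultures it was 0 with the co-culture arrays alone and 2 with the replicate block, which added TGFB3. The replicate block changed no other count of the 9 genes. Same-numbered PA6 arrays gave little sign of pairing (r 0.0628 to 0.164), and there the block gave TGFB3 an adjusted p of 0.00271. With no fold threshold the counts were 3 for FGF2 in PA6 cells, 5 for FGF2 against BMP4 in PA6 cells and 8 between the culture types. Leaving out 1 array at a time gave 0 to 2 for FGF2 in co-cultures, 1 to 2 in PA6 cells, 0 to 1 for FGF2 against BMP4 in co-cultures, 2 to 4 between the culture types and 0 to 2 for the difference of the FGF2 effects. Without co-culture -GFs replicate 1 TGFB3 was called for FGF2 in co-cultures (-1.44), without PA6 FGF2 replicate 2 TGFBR2 was called in PA6 cells (1.02) and without PA6 FGF2 replicate 3 TGFBR1 was (1.04). Pathway calls for FGF2 in co-cultures were 1 with quantile or spline and 5 with no fold threshold, in place of 2, and in PA6 cells 16 with no fold threshold in place of 10. For BMP4 in co-cultures the 1 pathway call was lost (0) with median scaling, no filter, array weights, the co-culture arrays alone or an adjusted p under 0.05, and in PA6 cells the 2 became 1 with detection on all 18 arrays or the probe of largest variance and 6 with no fold threshold. The causes of these changes were not tested. Detection on all 18 arrays leaves LTBP1 and LTBP2 untested, and the dim signals of LTBP1 and LTBP2 limit what can be read of them.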

Other observations

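Of 8 tested SMADs and regulators 3 were called higher and 1 lower in the co-cultures in -GFs medium, where 39% of all genes were called, so the share is near the background. These genes were picked out after their values were seen. SKIL, a nuclear SMAD repressor, was 11.86 in the co-cultures and 9.95 in PA6 cells (log2 fold change 1.91 ± 0.145 SE; adjusted p 8.62e-09). SMURF1, a ubiquitin ligase for SMADs, was higher by 1.48 (adjusted p 2.12e-05) and TGIF2, a SMAD corepressor, by 1.04 (adjusted p 0.00121), the last detected on 1 of 3 PA6 arrays. PMEPA1, a membrane protein that sequesters SMADs, was lower by 2.26 (log2 fold change -2.26; adjusted p 6.41e-07). CTGF was 12.75 in the co-cultures and 9.92 in PA6 cells (adjusted p 4.07e-07). Of the 18 tested TGF-beta-responsive genes, CTGF among them, 3 were called higher and 8 lower in this comparison. Of all genes 19.4% were called higher and 19.5% lower. The median of that list was -0.70, against -0.11 for all genes. On the log2 scale the 6 endothelial markers averaged 6.68 to 7.69 over the co-culture arrays, against 5.75 to 6.27 over those of PA6 cells. In -GFs medium 2 of the 5 tested were called higher in the co-cultures, where 19.4% of all genes were called higher, and TIE1 was not tested. In each co-culture group 3 of the 6 were detected on every array.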
